A study of Mus musculus with 15 samples.

Results

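Captured HindIII sites of an Ifng bait were set against those of 2 fat-gene baits, Pparg and Lpin1, in differentiating mouse 3T3-L1 cells. The comparison used 24 libraries of 27 in the series: 8 of the Ifng bait, and 16 of the fat-gene baits (8 of Pparg and 8 of Lpin1). Each library is a 4C-seq experiment, in which chromatin is fixed, cut with HindIII, ligated and cut again, and the fragments joined to 1 chosen bait are amplified and sequenced. A HindIII site was called captured when it held 1 read or more, and the captured share of a window is the percent of its sites that were captured. Windows were 500 kb long with 50 or more sites, on the 16 autosomes that hold none of the baits. Chromosomes 10 (Ifng), 6 (Pparg) and 12 (Lpin1) were left out, so every captured site lies on another chromosome than its bait. Whether a captured site marks a contact in the nucleus was not tested. All positions are in mm9.

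3T3-L1 is a fibroblast line that turns into fat cells under a hormone mix. The 24 libraries come from 12 samples, with 1 sample for each bait and day. Each bait was read at day 0 (confluent preadipocytes before the mix), day 1, day 2 and day 6 (labelled mature adipocytes), with 2 files a day numbered 1 and 2. Per the labels, day 0 cells were given 1 μM dexamethasone, 0.5 mM 3-isobutyl-1-methylxanthine, 1 μg/ml insulin and 10% fetal calf serum, from day 2 insulin and serum, and later serum alone. Fixation was in 2% formaldehyde and lasted 10 min. The series also has 1 library per bait from a line labelled only as B lymphocytes, which entered no test.

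Pparg encodes PPAR gamma, the master transcription factor of adipocyte differentiation, and Lpin1 encodes lipin 1, a phosphatidate phosphatase needed to make triglycerides. Both are active genes of fat cells. Ifng encodes interferon gamma, a cytokine of T cells and natural killer cells that fibroblasts and fat cells do not normally make. In mammalian nuclei active, gene-rich stretches tend to contact other such stretches on any chromosome, and silent, gene-poor stretches tend to contact each other. Which genes lie in the windows was not analysed here, because the annotation at hand is of another build than mm9.

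The libraries differed in depth. The Ifng libraries captured 13312 to 46519 of the 642708 sites on the 16 chromosomes, the Pparg libraries 2838 to 33452 and the Lpin1 libraries 2888 to 24811. The files numbered 2 of Pparg were the shallowest set, with 2838 to 9510 captured sites. Captured sites held 1.81 to 4.51 reads each with the Ifng bait, against 4.10 to 19.9 with Pparg and 17.2 to 89.9 with Lpin1, and 41.9% to 75.2% of them held a single read with Ifng, against 20.4% to 42.8% with Pparg and 14.2% to 37.4% with Lpin1. A multiple below is a window's captured share over that of all 16 chromosomes in the same library. It has a ceiling that is lower in deeper libraries, since a share cannot pass 100%.

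Some libraries of 1 bait captured the same individual sites more often than random placement within each window gives. Shared sites were 2.49 to 4.62 times that number between Ifng libraries in 3T3-L1 and 3.26 to 5.24 times between these and the Ifng library of the B cell line. They were 7.30 to 11.8 times it among the Pparg files numbered 2 and 5.67 to 9.56 times between these and the Pparg B cell library, against 1.57 to 3.88 times among the Pparg files numbered 1. The Lpin1 files numbered 2 of days 1 and 2 shared 2938 sites, 51.8% of those captured in the shallower of them and 27.7 times the number from random placement. Lpin1 libraries shared 2.06 to 7.95 times that number with the Lpin1 B cell library, with the highest ratios for the same 2 files, which had 37.97% and 35.1% of their sites in common with it. Between libraries of different baits in 3T3-L1 the ratio was 1.08 to 1.90. The part of this sharing in the results was not tested directly. The counts below are therefore also given for each file number alone and without sites that more than 1 library of a bait captured, alternatives chosen after these values were seen.

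The Ifng bait and the fat-gene baits captured different parts of the other chromosomes. Of 3312 windows with a mean of at least 3 captured sites a library, 1069 (32.3% of those tested) were captured more by Ifng than by both Pparg and Lpin1, and 824 (24.9%) were captured less by Ifng than by both. A window was called when both contrasts passed an adjusted p of 0.05 in the same direction, in edgeR's quasi-likelihood test over all tested windows with Benjamini-Hochberg adjustment. In 220 windows (6.64%) all 8 Ifng libraries lay above all 16 fat-gene libraries, and in 92 windows (2.78%) all 8 lay below all 16. A fat-gene library with no captured site in a window prevents the second outcome but not the first. The shallowest fat-gene libraries held 2838 and 2888 captured sites, so these counts cannot be compared between the directions. The 2 fat-gene baits differed from each other in far fewer windows, with Pparg above Lpin1 in 167 and below it in 94, 7.88% of those tested, against 72.2% for Ifng and Pparg and 64.6% for Ifng and Lpin1. The fat-gene libraries reached lower numbers of captured sites than the Ifng libraries, so the contrasts did not have equal power. The count for Pparg and Lpin1 at equal captured sites was not taken.

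The differences were large in both directions. The log2 difference between Ifng and the mean of both fat-gene baits had a median of 1.91 over the windows preferred by Ifng and −1.57 over those preferred by the fat-gene baits, beside 0.09 over all tested windows. It was past 4-fold in 475 windows preferred by Ifng and in 182 preferred by both fat-gene baits, and past 8-fold in 103 and 10. Across the tested windows the mean multiples of Ifng ranked oppositely to those of either fat-gene bait, with a Spearman correlation of −0.49 with Pparg and −0.52 with Lpin1, whereas those of Pparg and Lpin1 correlated at 0.73 (3312 windows, a description over windows that share libraries). The filter on mean captured sites left out 713 windows and can by itself lower a correlation between baits. Values over all windows were not taken. Within a bait, files numbered 1 and 2 correlated at 0.84 for Ifng, 0.76 for Pparg and 0.73 for Lpin1.

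The number of calls moved with scaling, depth and files, and the split between the directions moved with it. With DESeq2's size factors, under which the median log2 difference of all tested windows was 1.12, the counts were 1639 windows preferred by Ifng and 140 by the fat-gene baits. With limma on shares, where that median was −0.24, they were 679 and 996. The calls with edgeR were all kept in the same direction or lost under these scalings, and none was called the other way, although with DESeq2 44 of the 824 fat-gene windows had a log2 difference of 0 or above. With the files numbered 1 alone the counts were 767 and 632, with those numbered 2 alone 765 and 151, and with sites that only 1 library of a bait captured 264 and 50. There was 1 lymphocyte-gene bait and each fat-gene bait lies at 1 site, so the libraries repeat these baits and do not sample classes of genes. Nothing in the labels says that the 2 files of a sample are separate cultures, and each p-value rests on the spread between libraries, which may be technical. With both files of a sample summed, 12 samples in all, the counts were 1031 and 877, an alternative added after the values were seen, and all 24 leading windows described below were called.

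Most called windows adjoined another of the same call. The 1069 windows preferred by Ifng formed 460 stretches, 42 of them 5 windows or longer, and 79.9% of the windows adjoined another of the same kind. The 824 windows preferred by both fat-gene baits formed 382 stretches, 35 of them 5 windows or longer, with 77.3% adjoining another. The longest stretch preferred by Ifng ran over 29 windows, 14.5 Mb, at chr16:34000001-48500000. The 2 longest stretches preferred by the fat-gene baits ran over 9 windows, 4.5 Mb, at chr4:132500001-137000000 and chr8:32500001-37000000.

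Chromosome 16 held the windows with the largest preference for Ifng. It holds 5.44% of the tested windows, and 35 of the 103 windows that Ifng captured over 8-fold more lay on it. The 6 leading stretches of the Ifng direction were all on this chromosome, and each is described by its leading window. Stretches were ranked by the smallest p of any window in them, among those with at least 1 window whose libraries did not overlap.

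The leading window of all was chr16:62000001-62500000, which has 181 HindIII sites. Its multiples in the Ifng libraries had a lowest value of 7.38, a median of 10.4 and a highest value of 17.2, against 0, 0 and 0.301 in Pparg libraries and 0, 0.609 and 1.88 in Lpin1 libraries. In counts, 57 to 122 of its sites were captured with Ifng, against 0 to 2 with Pparg and 0 to 4 with Lpin1. The multiples were 15.2 and 17.2 in the Ifng libraries with the fewest captured sites, and 9.31 and 7.38 in those with the most. The lowest Ifng library lay above every fat-gene library, and the log2 difference was 5.06 ± 0.26 (SE, n = 8 and 16 libraries from 4 and 8 samples, larger adjusted p of the 2 contrasts 4.99e-37, edgeR). Here Pparg also lay below Lpin1, with a log2 difference of −2.02 between them (adjusted p = 0.0297, edgeR).

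The leading window of the 14.5-Mb stretch was chr16:40500001-41000000. Its multiples were 6.68, 8.06 and 13.4 (lowest, median and highest) with Ifng, against 0, 0.234 and 0.622 with Pparg and 0, 0.499 and 1.26 with Lpin1. Over all 29 windows of the stretch the mean multiple was 5.33 with Ifng, against 0.891 with Pparg and 1.08 with Lpin1, so the level of both fat-gene baits there lay near their own mean.

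The remaining leading windows on this chromosome followed the same order. At chr16:9500001-10000000 the median multiple was 6.63 with Ifng, against 0.474 with Pparg and 0.357 with Lpin1. At chr16:28000001-28500000 it was 6.19 with Ifng, against 0.465 and 0.221. At chr16:12500001-13000000 it was 6.66 with Ifng, against 0.324 and 0.583, and at chr16:19500001-20000000 it was 4.48, against 0.188 and 0.353. The groups did not overlap in any of these windows. Their log2 differences lay between 3.57 and 4.06, with SEs of 0.26 to 0.28.

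The other 6 leading windows preferred by Ifng lay on chromosomes 1, 2 and 5, with lower levels of Ifng. The window chr1:177000001-177500000 had multiples of 2.78, 3.79 and 5.52 (lowest, median and highest) with Ifng, against 0, 0.243 and 1.30 with Pparg and 0, 0 and 0.777 with Lpin1, with a log2 difference of 3.99 ± 0.31. The window chr5:132500001-133000000 had 2.52, 3.72 and 4.39 with Ifng, against 0, 0.0624 and 1.45 with Pparg and 0, 0 and 1.45 with Lpin1, with a log2 difference of 4.30 ± 0.34. In both, 5 of the 8 Lpin1 libraries held no captured site. In the windows chr2:169000001-169500000, chr5:142000001-142500000 and chr2:179000001-179500000 the Ifng medians were 3.24, 4.02 and 4.26, and no fat-gene library reached the lowest Ifng library.

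In the last of them, chr1:192000001-192500000, the groups overlapped. The Ifng multiples were 3.72, 5.30 and 7.02, against 0, 0.686 and 4.82 with Pparg and 0, 0.668 and 1.58 with Lpin1, and the highest Pparg value came from the day 6 file numbered 2, the shallowest library. Of the 12 leading windows preferred by Ifng, 11 thus showed no overlap, and in all 12 the medians of both fat-gene baits lay below 1. Over all 1069 windows preferred by Ifng 220 showed no overlap, and each leading stretch had to hold at least 1 such window.

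**Figure D1:**
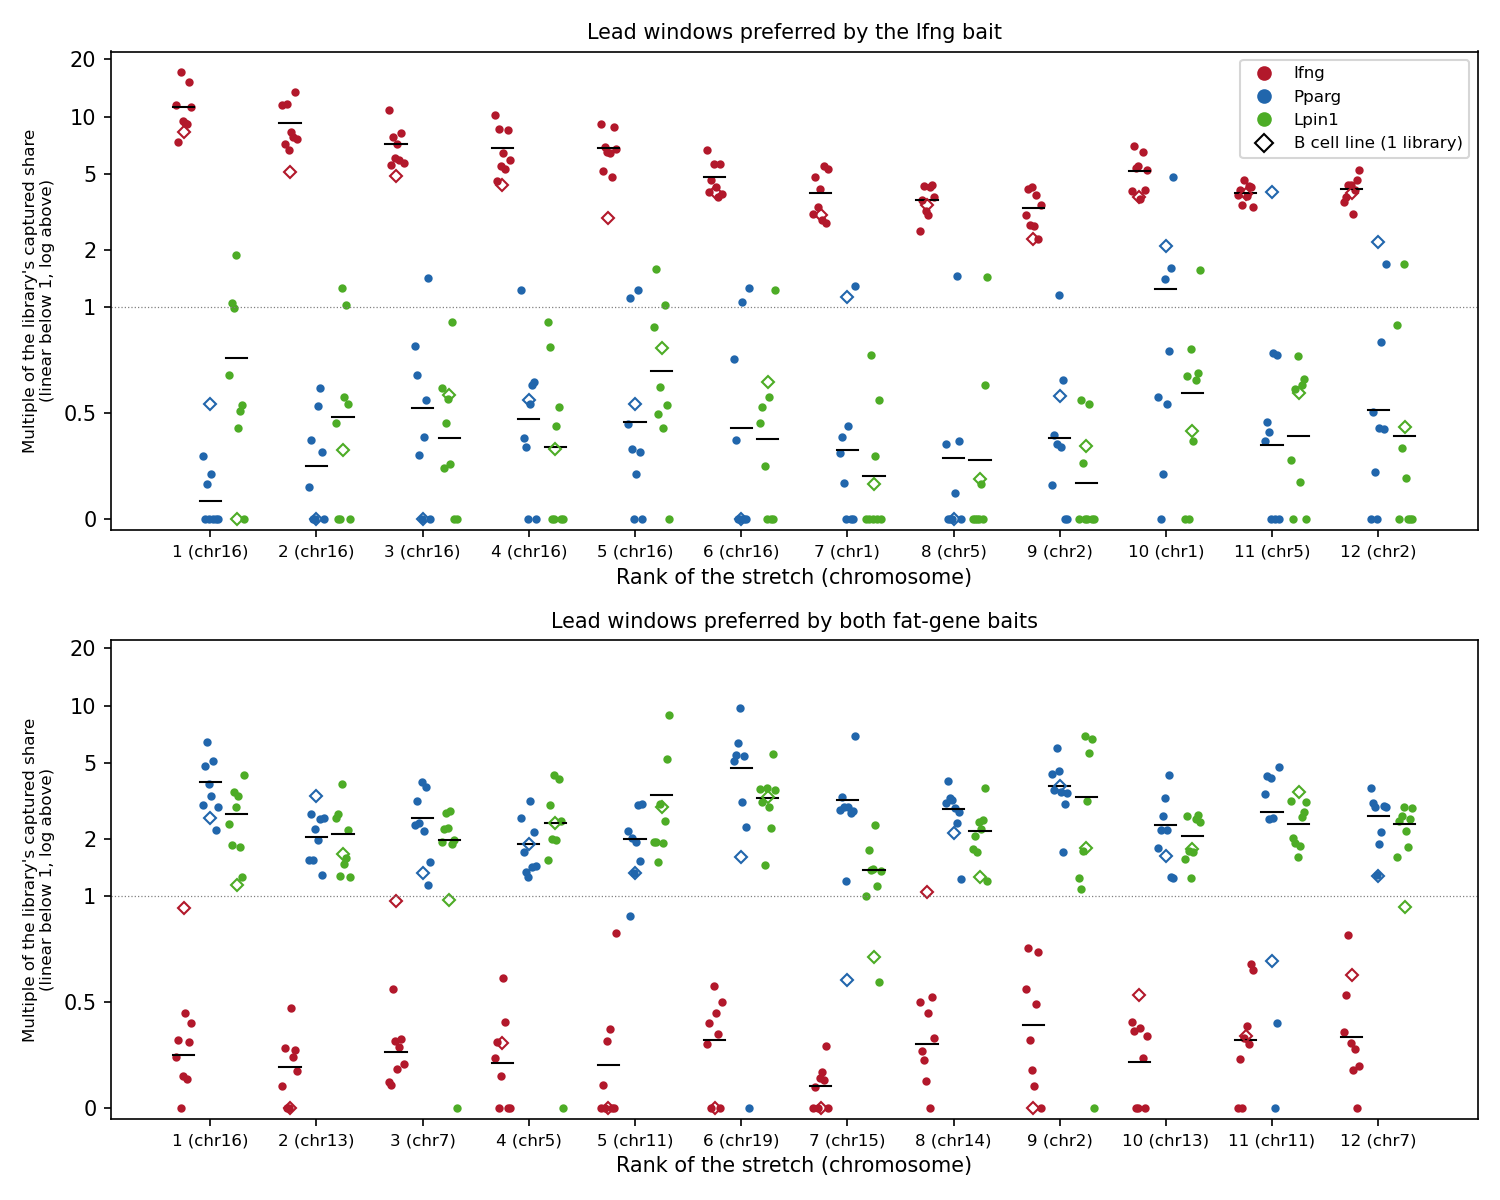
Multiples of the captured share in the 12 leading windows of each direction, with 1 point per 3T3-L1 library (8 per bait), a bar at the mean and an open diamond for the single B cell library; the axis is linear below 1 and logarithmic above. In the upper panel the Ifng medians lie between 3.24 and 10.4 and those of both fat-gene baits below 1, and in the lower panel the Ifng medians lie between 0.0554 and 0.405 and those of the fat-gene baits between 1.37 and 5.27.

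The 12 leading windows preferred by both fat-gene baits lay on 9 chromosomes, against 4 for those preferred by Ifng. Past 4-fold, windows of either direction lay on all 16 chromosomes. In the 12 leading windows the log2 differences ran from −3.85 to −2.57, with SEs of 0.30 to 0.40. In 7 of the 12 no Ifng library reached any fat-gene library. The same held in 92 of all 824 windows preferred by the fat-gene baits, and each leading stretch had to hold at least 1 such window.

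The first of them, chr16:92000001-92500000, lay near the far end of the chromosome that Ifng otherwise prefers. Its multiples were 0, 0.277 and 0.449 (lowest, median and highest) with Ifng, against 2.22, 3.61 and 6.45 with Pparg and 1.27, 2.67 and 4.34 with Lpin1. The groups did not overlap, and the log2 difference was −3.19 ± 0.32 (larger adjusted p 2.26e-12, edgeR). On chromosome 16 as a whole 108 of 180 tested windows were preferred by Ifng and 14 by the fat-gene baits. Of the 28 tested windows that start past 84 Mb, 9 were preferred by Ifng and 9 by the fat-gene baits.

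The largest log2 difference in this direction was at chr15:56500001-57000000. Its multiples were 0, 0.115 and 0.294 with Ifng, against 1.21, 2.87 and 6.90 with Pparg and 0.595, 1.37 and 2.37 with Lpin1, with a log2 difference of −3.85 ± 0.40 and no overlap. Pparg was also above Lpin1 there, with a log2 difference of 0.97 (adjusted p = 0.0214, edgeR). The window chr11:53500001-54000000 had 0, 0.0554 and 0.826 with Ifng, against 0.907, 1.98 and 3.04 with Pparg and 1.51, 2.21 and 8.96 with Lpin1. There 4 of the 8 Ifng libraries held no captured site and no fat-gene library was at 0.

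On chromosome 13 the fat-gene baits led at 2 places. At chr13:94500001-95000000 the median multiple was 0.209 with Ifng, against 2.11 with Pparg and 1.90 with Lpin1. At chr13:32000001-32500000 it was 0.286 with Ifng, against 2.22 and 2.09. The groups did not overlap at either place. On chromosome 7 the medians at chr7:118500001-119000000 were 0.292 with Ifng, against 2.94 and 2.51, also without overlap. At chr14:77000001-77500000 they were 0.300 with Ifng, against 3.00 and 2.15, again without overlap.

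In the other 5 leading windows 1 or 2 fat-gene libraries crossed into the Ifng range. At chr19:5500001-6000000 the multiples were 0, 0.375 and 0.575 with Ifng, against 0, 5.27 and 9.66 with Pparg and 1.47, 3.36 and 5.55 with Lpin1. The Pparg value of 0 came from the day 6 file numbered 2, and the same file number of Lpin1 at day 6 gave the 0 at chr7:133500001-134000000, chr5:65000001-65500000 and chr2:119000001-119500000. At these 3 windows the medians were 0.246, 0.192 and 0.405 with Ifng, against 2.40, 1.57 and 3.57 with Pparg and 2.10, 2.23 and 2.44 with Lpin1. At chr11:4000001-4500000 the median was 0.316 with Ifng, against 3.01 with Pparg, whose day 2 file numbered 2 was at 0 and day 6 file numbered 1 at 0.402, and 2.32 with Lpin1.

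At 2 Mb from the leading windows the mean of Ifng still lay on the same side of both fat-gene baits. Averaged over the 12 leading windows of the Ifng direction, the multiple of Ifng was 5.89 in the leading window, against 0.444 for Pparg and 0.424 for Lpin1. At 2 Mb on the lower-numbered side it was 2.05 for Ifng, against 1.37 and 1.27, and at 2 Mb on the higher-numbered side 2.21, against 1.51 and 1.39. Around the leading windows of the fat-gene direction Ifng had 0.260 in the leading window, against 2.90 for Pparg and 2.47 for Lpin1. There, Ifng had 0.881 at 2 Mb on the lower-numbered side (11 windows), against 1.44 and 1.43, and 1.18 at 2 Mb on the higher-numbered side, against 1.42 and 1.32. The last Ifng value, 1.18, was above the bait's own mean share. Of the 12 leading windows of the Ifng direction 6 lay on chromosome 16, where the Ifng multiple was 2.72 as a whole. The Ifng values at 2 Mb therefore cannot be told apart from the level of the chromosome. The leading windows were chosen for their values, so the height at the centre is a description of that choice.

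**Figure D2:**
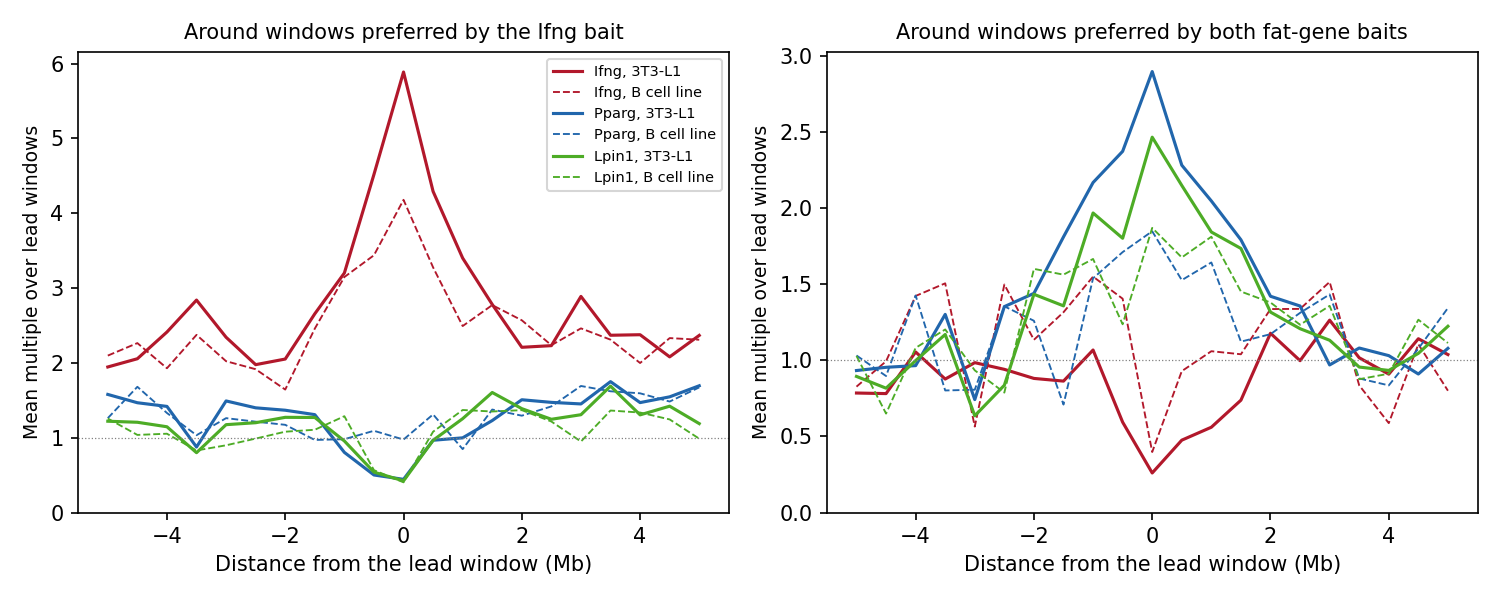
Mean multiple over the 12 leading windows of each direction against the distance from the leading window in Mb, in 500-kb steps; solid lines are means over the 8 libraries of a bait in 3T3-L1 and dashed lines the single B cell library. Fewer windows entered from 3 Mb on the higher-numbered side of the Ifng direction (11). The same held from 1.5 Mb on the lower-numbered side of the fat-gene direction (10 or 11). In the left panel the Ifng line peaks at 5.89 and stays above both fat-gene baits to 5 Mb on either side, and in the right panel it falls to 0.260 at the centre against 2.90 for Pparg and 2.47 for Lpin1.

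The windows captured most were not the same for Ifng as for the fat-gene baits. The 5 highest for Ifng all lay on chromosome 16 and all were called as preferred by Ifng, with mean multiples of 9.59 to 11.3. The highest window of both fat-gene baits was the same, chr11:3000001-3500000, with a mean multiple of 6.28 ± 1.71 for Pparg and 10.2 ± 3.85 for Lpin1 (SD, n = 8 each), and Ifng captured it too, at 2.97 ± 0.66. The window chr2:77500001-78000000 was also among the 5 highest of both, at 5.77 ± 1.63 for Pparg and 6.62 ± 2.27 for Lpin1, beside 2.18 ± 0.38 for Ifng. Ifng did not pass 1.31 in any library at chr8:129000001-129500000 or 0.754 at chr7:29500001-30000000, which were among the 5 highest of Pparg and of Lpin1. Of the windows among the 5 highest of a fat-gene bait, chr2:166000001-166500000 was not called, with 0.997 ± 0.454 for Ifng, against 5.33 ± 1.44 for Pparg and 1.68 ± 1.91 for Lpin1.

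Whole chromosomes differed less than windows, apart from chromosome 16. Ifng captured chromosome 16 at 2.72 ± 0.42 times its mean share (SD, n = 8 libraries, range 2.18 to 3.44), against 0.987 ± 0.058 with Pparg and 1.09 ± 0.04 with Lpin1, and no fat-gene library exceeded 1.13. Two-sided exact permutation tests of 8 against 8 libraries gave an adjusted p of 0.000355 for either contrast, adjusted over 32 tests, from the smallest p that the permutations can give (0.000155). Chromosomes 1 and 5 also passed as preferred by Ifng, making 3 of 16 (18.8%), with overlap between the libraries. Chromosome 1 had 1.03 ± 0.05 with Ifng, against 0.921 ± 0.093 and 0.808 ± 0.039, and chromosome 5 had 1.15 ± 0.06, against 1.04 ± 0.05 and 1.03 ± 0.07. Both lost the call with reads in place of captured sites and at equal captured sites, and chromosome 1 also with at least 2 reads per captured site. With the mean of both files of a sample, 4 samples per bait, chromosomes 16 and 5 still passed (adjusted p = 0.0435 in exact permutation tests, the smallest that design gave) and chromosome 1 did not.

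Chromosomes 13, 11, 19, 15, 7, 9, 17, 2 and 4 passed as preferred by both fat-gene baits, 9 of 16 (56.2%). Chromosome 13 had 0.723 ± 0.039 with Ifng, against 1.08 ± 0.05 with Pparg and 0.915 ± 0.056 with Lpin1. Chromosome 11 had 0.900 ± 0.032 with Ifng, against 1.24 ± 0.14 and 1.23 ± 0.07, and chromosome 15 had 0.879 ± 0.020, against 1.06 ± 0.07 and 1.25 ± 0.05. The libraries did not overlap for chromosomes 9, 11, 13 and 15, 25% of those tested. Because multiples are relative to the total, the high level of chromosome 16 with Ifng lowers its multiples elsewhere. With chromosome 16 left out of the total, an alternative chosen after the values were seen, 3 of these 9 chromosomes still passed, chromosomes 11, 13 and 15, and chromosomes 1, 5, 8 and 14 passed as preferred by Ifng. With the mean of both files of a sample 7 of the 9 passed, all but chromosomes 4 and 17. Across the 16 chromosomes the Ifng difference ran against protein-coding genes per 1000 HindIII sites (Spearman correlation −0.52 with all 16 and −0.52 without chromosome 16), counting genes of the RefSeq annotation of GRCm38.p6, a later build. It was also correlated with the number of HindIII sites on the chromosome (0.36 with all 16 and 0.55 without chromosome 16), and less with sites per Mb (0.23 and 0.17). These are descriptions over 16 chromosomes that share libraries, with no test.

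**Figure D3:**
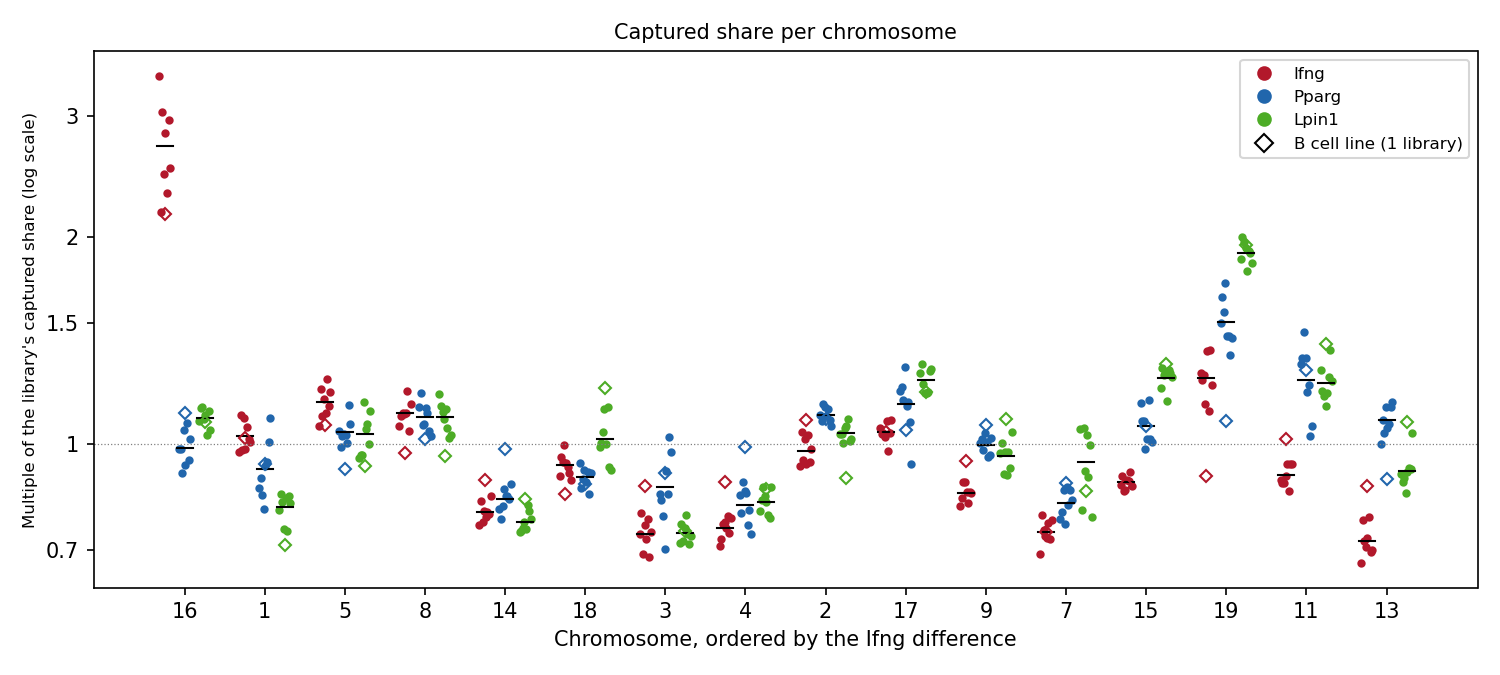
Multiple of the captured share for each of the 16 chromosomes, on a log scale, with 1 point per 3T3-L1 library, a bar at the mean of 8 and an open diamond for the single B cell library; chromosomes are ordered from the highest Ifng difference to the lowest. Chromosome 16 stands apart with Ifng at 2.18 to 3.44, against 0.906 to 1.13 over all fat-gene libraries.

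The preferred windows differed in how densely they hold HindIII sites. The enzyme's recognition sequence is rich in A and T, so dense sites go with AT-rich sequence, which in mammals tends to be gene-poor. Windows preferred by Ifng had a median of 168 sites, against 153 in those preferred by both fat-gene baits and 163 in all tested windows. Of the fifth of tested windows with the fewest sites (82 to 144), 11.97% were preferred by Ifng and 43.65% by the fat-gene baits. Of the fifth with the most sites (178 to 223), 42.5% were preferred by Ifng and 17.6% by the fat-gene baits. Without chromosome 16 these shares were 11.9% and 44.9% in the sparsest windows and 40.9% and 18.1% in the densest.

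The same contrast could be read in every library without any call. The captured share of windows with up to 144 sites, over that of windows with 178 or more, was 0.782 to 0.949 in the 8 Ifng libraries, against 1.70 to 2.88 in the Pparg libraries and 1.61 to 2.19 in the Lpin1 libraries. No Ifng library reached 1, and no fat-gene library came below 1.61. The mean log2 difference was −1.38 between Ifng and Pparg and −1.06 between Ifng and Lpin1, each with p = 0.000155 in a two-sided exact permutation test (2 tests, the smallest p that 8 against 8 libraries can give). With the mean of both files of a sample, 4 against 4, the exact p was 0.0286 for each, again the smallest possible. Reads were also drawn at random from every library until 2838 captured sites were reached, in 1 draw. The ranges were then 0.626 to 0.930 with Ifng, against 1.65 to 2.91 with Pparg and 1.59 to 2.22 with Lpin1. The baits thus stayed apart at an equal number of captured sites. Reads per captured site were not matched, and sites with more reads were more likely to be drawn.

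**Figure D4:**
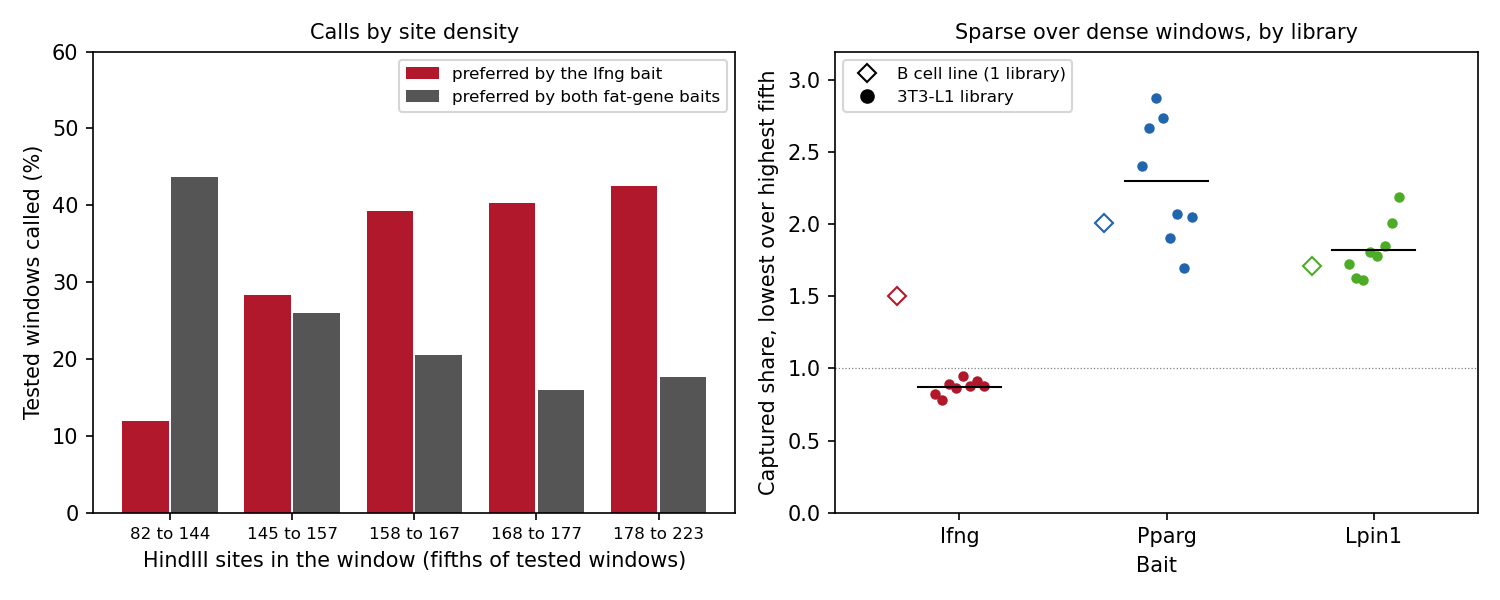
Left, the percent of tested windows called in each direction, in 5 groups of similar size by the number of HindIII sites in the window. Right, the captured share of the sparsest windows over that of the densest, with 1 point per 3T3-L1 library, a bar at the mean of 8 and an open diamond for the B cell library. The Ifng libraries of 3T3-L1 lie between 0.782 and 0.949, all fat-gene libraries at 1.61 or above, and the Ifng B cell library at 1.503.

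The preference for or against Ifng was present on each day. No window passed the test of a change in the Ifng difference between day 6 and day 0 (0 of 3312, 0%, in edgeR, with 197 at an unadjusted p under 0.05, and 0 in DESeq2, with 58). With 2 libraries per bait and day the test is coarse, and a p that misses the threshold does not show equal values. In fits with a separate level for each bait and day, the median log2 difference of the windows preferred by Ifng was 2.24 at day 0, 2.22 at day 1, 1.82 at day 2 and 2.63 at day 6. For the windows preferred by the fat-gene baits it was −1.68, −1.75, −1.52 and −1.43 in the same order of days. The difference had the same sign on all 4 days in each of the 24 leading windows, in 98.7% of the windows preferred by Ifng and in 91.8% of those preferred by the fat-gene baits, beside 72.3% of all tested windows. The choice of the called windows over all days favours such agreement.

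The B cell line gave a look at the same windows in libraries that took no part in choosing them, with 1 library per bait and no test. Of the windows preferred by Ifng in 3T3-L1, Ifng lay above both other baits in the B cell line in 607 of 1069 (56.8%), against 32.2% of all tested windows. Of those preferred by the fat-gene baits, Ifng lay below both in 483 of 824 (58.6%), against 34.0% of all tested. Of the leading windows, 11 of 12 kept the Ifng order and 12 of 12 the fat-gene order, although the fat-gene windows had only 0 to 4 captured sites in the Ifng library. The exception was chr5:142000001-142500000, with a multiple of 3.95 with Ifng from 12 captured sites, against 4.03 with Pparg from 6 sites. These libraries share individual sites with those of 3T3-L1, as given above, so they are not separate evidence site by site.

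Chromosome 16 was also the highest chromosome of Ifng in the B cell line, at 2.16, against 1.11 with Pparg and 1.08 with Lpin1. The window chr16:62000001-62500000 had a multiple of 8.30 with Ifng there, from 31 captured sites, against 0.546 with Pparg and 0 with Lpin1.

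All 3 baits divided their captured sites between the sets less sharply in the B cell library than in any of their 3T3-L1 libraries. The choice of the windows on 3T3-L1 values favours this outcome in advance. Of the Ifng bait's 13271 captured sites 35.8% (95% Wilson interval 35.0% to 36.7%) lay in windows preferred by Ifng, against 45.3% to 49.5% over the 8 libraries in 3T3-L1. In the windows preferred by the fat-gene baits Ifng had 18.0% (17.4% to 18.7%) in the B cell line, against 8.72% to 11.8% in 3T3-L1. Pparg had 22.1% (21.1% to 23.1%) of its B cell sites in windows preferred by Ifng, against 9.60% to 16.6% in 3T3-L1, and 28.9% (27.8% to 30.0%) in windows preferred by the fat-gene baits, against 34.0% to 45.8%. Lpin1 lay nearest its 3T3-L1 range, with 15.6% (15.08% to 16.04%), against 11.7% to 15.4%, and 32.2% (31.6% to 32.8%), against 34.3% to 40.1%. The first of these Lpin1 intervals reaches into the 3T3-L1 range. The intervals cover counting error only. Because the windows were chosen on the 3T3-L1 values, a difference between the lines cannot be told apart from that choice here.

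A measure that does not depend on that choice lay outside its 3T3-L1 range in the B cell line for Ifng, but not for Pparg or Lpin1, a difference with no test. The captured share of the sparsest windows over the densest was 1.503 in the Ifng B cell library, above all 8 Ifng libraries of 3T3-L1, which reached at most 0.949. For Pparg it was 2.01 in the B cell line, within the 1.70 to 2.88 of 3T3-L1, and for Lpin1 1.71, within 1.61 to 2.19. In the B cell line the order of the baits was thus the same as in 3T3-L1, with Ifng lowest, but its value lay on the other side of 1.

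**Figure D5:**
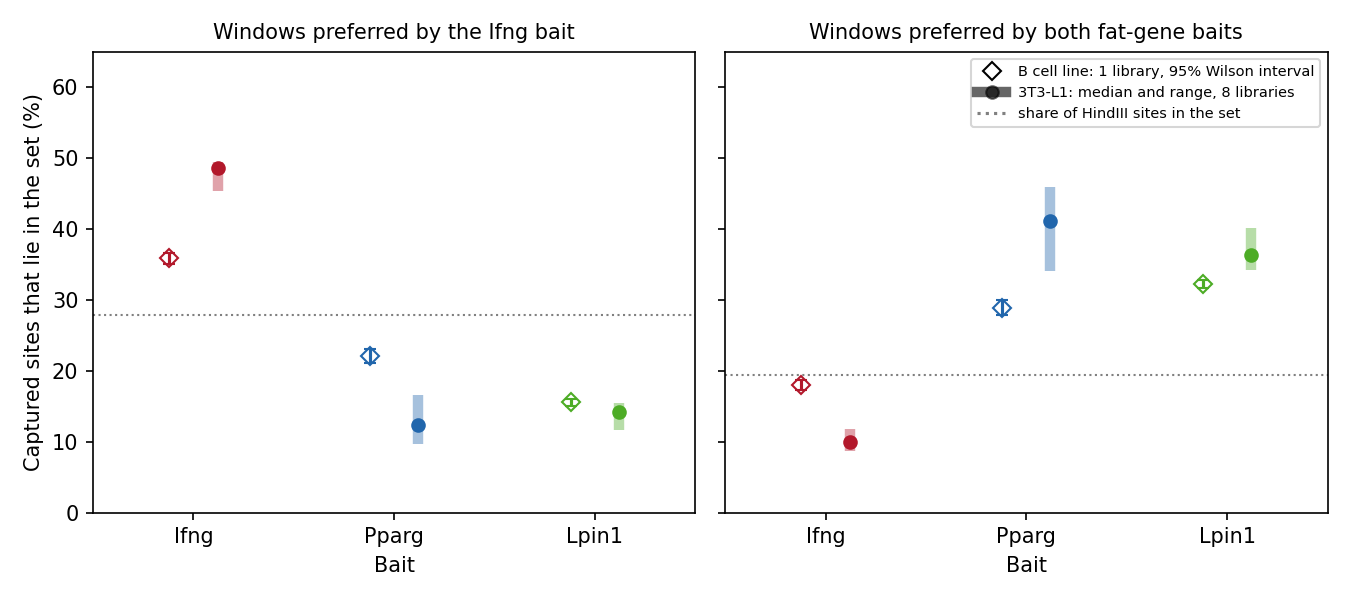
Percent of each bait's captured sites on the 16 chromosomes that lie in windows preferred by Ifng (left) and by both fat-gene baits (right); open diamonds are the single B cell library with its 95% Wilson interval, filled points and bars the median and range of 8 libraries in 3T3-L1, and the dotted line the percent of all HindIII sites in the set (27.8% and 19.5%). The Ifng B cell library lies at 35.8% and 18.0%, nearer the dotted line than every Ifng library of 3T3-L1.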

How the data were processed

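The authors deposited 27 files of counts, which give unnormalised read numbers for 823355 HindIII sites. Bowtie and the build mm9 are named per the submitters' processing notes, with no version, and read filters and duplicate removal are not given in the sources used here. Groups came from the sample labels and replicate numbers from the deposited names. Captured sites (1 read or more) were summed over 500-kb windows, of which 4025 of 4034 held at least 50 sites, and 3312 passed a mean of 3 captured sites in a library. They were fitted in edgeR 4.0.16 under R 4.3.3 (quasi-likelihood, robust, TMM scaling, bait and day as additive terms over 24 libraries, with 18 residual degrees of freedom). The contrasts were Ifng minus Pparg and Ifng minus Lpin1, and the size is Ifng minus the mean of both. The SE given with it is the absolute size over the square root of the F statistic of that contrast, an approximation. Chromosomes were compared with exact permutation tests on log2 multiples, run in Python 3.11.15 with NumPy 2.4.6.

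The text names, per direction, the leading window of the 12 first stretches of adjoining called windows (ranked by the smallest of their larger p, and with at least 1 window whose libraries did not overlap), the longest stretches, the 5 windows each bait captured most, and any of the 16 chromosomes. The sets, windows and lists were chosen with earlier results of these data known. Same-numbered files did not deviate together between baits (correlations of −0.007 to 0.073), and the numbers were not used as pairs. Windows held few captured sites in the shallow libraries, so these correlations cannot exclude pairing. Alternatives were DESeq2 1.42.0, limma 3.58.1, other filters, windows, thresholds and terms, equal captured sites, subsets of days and files, both files of a sample summed or averaged (12 samples, added after the values were seen), and each library left out in turn. Depth is the number of captured sites, 2838 to 46519 a library. The reads are of PCR products without molecular identifiers, so their number is not a count of molecules. The Wilson intervals cover counting error only.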

Additional observations from a re-analysis of the deposited data

Results flagged for a closer look

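In 123 groups of 8 libraries (the 24 leading windows, the 16 chromosomes and the ratio of sparse to dense windows, for each bait), 10 held a library set far from the others by Dixon's ratio at 95%, where chance alone flags about 1 in 20 groups. The cause was not tested for any of them. The day 6 file numbered 2 of Pparg, the shallowest library with 2838 captured sites, stood above the rest in 3 windows: its multiple was 1.30 at chr1:177000001-177500000, 4.82 at chr1:192000001-192500000 and 6.90 at chr15:56500001-57000000. The day 2 file numbered 2 of Pparg had 1.45 at chr5:132500001-133000000, against at most 0.370 in the other Pparg libraries.

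The day 6 file numbered 2 of Lpin1, with 2888 captured sites, stood apart in 4 groups. Its multiple was 1.24 at chr16:19500001-20000000, 1.45 at chr5:132500001-133000000 and 0 at chr7:133500001-134000000, and chromosome 13 as a whole stood at 1.04, against at most 0.924 in the other Lpin1 libraries. With Ifng, day 1 file 1 had a multiple of 0.563 at chr7:133500001-134000000 and day 6 file 2 had 0.826 at chr11:53500001-54000000, where the next Ifng value was 0.371. All of these windows but chr1:192000001-192500000 and chr7:133500001-134000000 kept Ifng apart from both fat-gene baits in every library.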

How the results depend on the processing

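Counts are given as windows preferred by Ifng and by both fat-gene baits, beside 1069 and 824. They were 1639 and 140 with DESeq2, 406 and 364 with a mean of at least 5 captured sites (1168 windows tested), 325 and 223 with at least 2 reads per captured site, 172 and 141 with reads, 188 and 177 at equal captured sites, 486 and 266 in 250-kb windows, 642 and 400 at days 2 and 6 alone, and 264 and 50 with sites of 1 library of their bait. The Ifng count was 679 with limma and 699 in 1-Mb windows, and the fat-gene count 151 with files numbered 2 alone. Of all calls 56.5% were in the Ifng direction, against 92.1% with DESeq2, 40.5% with limma, 67.7% without a filter, 83.5% with files numbered 2 and 84.1% with sites of 1 library.

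Leaving out each library gave 940 to 1189 and 559 to 849 windows, 3 chromosomes preferred by Ifng and 8 to 9 preferred by the fat-gene baits. With both files of a sample summed the counts were 1031 and 877. With reads, and at equal captured sites, only chromosome 16 (1 chromosome) passed as preferred by Ifng, and with chromosome 16 left out 3 passed as preferred by the fat-gene baits. The file number as a replicate block gave 1053 and 776, and whether the numbers pair the samples is not known. The change between days 0 and 6 passed in 0 windows under every alternative run.

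The leading windows were not looked up in the 250-kb windows. Under the other alternatives none of them reversed. There, 18 values missed the threshold, 15 with sites of 1 library of their bait and 3 at equal captured sites. The cause was not tested. A further 3 values were not tested: chr11:53500001-54000000 with a mean of at least 5 captured sites, and chr7:133500001-134000000 and chr15:56500001-57000000 with files numbered 2 alone. Of the windows called, 679 of 1069 and 140 of 824 were also called without TMM, with DESeq2 and with limma. Depth limits the windows with few captured sites: 713 with a mean under 3 over the 24 libraries were not tested.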
